A study of Mus musculus with 9 samples.

Results

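The genes described here are 43 genes of DNA replication and S phase, chosen by symbol from a count table of 55401 mouse genes: the origin licensing factors and MCM helicase, the factors that start the helicase, the polymerases and primase, the sliding clamp and its loader, the lagging-strand enzymes, the suppliers of nucleotides, G1/S regulators, and chromatin factors that work at the replication fork. All 43 were found, and all 43 were among the 16762 genes that passed the filter on low counts. Measured values played no part in the listing, although earlier results of these data were known when it was drawn up.

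The cells were wild-type C57BL/6J neonatal mouse ventricular myocytes, taken at 1 day of age and grown in DMEM with 10% FBS, and RNA was sequenced after poly(A) enrichment in 9 libraries, 3 per group. The control group stayed in complete medium at normal oxygen. The hypoxia group spent 6 h in a sealed anaerobic chamber in DMEM without glucose and serum. The hypoxia + rSRGN group was treated the same way with recombinant serglycin (rSRGN), a proteoglycan core protein, in the medium. Low oxygen, loss of glucose and loss of serum came together and cannot be told apart against control. The labels do not say whether the 3 libraries of a group came from separate isolations, so the p-values measure only the spread between these libraries.

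Replication origins are licensed in G1, when ORC, CDC6 and CDT1 load the MCM2-7 helicase onto DNA. In S phase, CDC45, GINS and MCM10 turn the loaded helicase into an active one, the primase-polymerase alpha complex lays primers, and polymerases delta and epsilon copy the strands while held by the PCNA clamp that replication factor C loads. Many of these genes are transcribed at the G1/S boundary under E2F factors, and heart muscle cells of the mouse still divide at birth and leave the cell cycle in the first days of life.

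Totals were 21669017 to 22781557 counts in control, 16583985 to 18148474 in hypoxia and 16640239 to 20826701 in hypoxia + rSRGN, and 1 count equalled 0.0449 to 0.0596 CPM. CPM values here use library sizes scaled by edgeR's TMM factors. The labelled cell type was checked against 15 cardiomyocyte markers, whose summed level was 51244 to 62596 CPM in control, 4308 to 6709 CPM in hypoxia and 8612 to 9254 CPM in hypoxia + rSRGN, and no marker was at 0 in all libraries. Thus myocyte transcripts were present in every library but much lower in both hypoxic groups. In bulk RNA, fewer cells of a type and less RNA per cell cannot be told apart.

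The E2F-type words TTTCGCGC and TTTGGCGC were searched on both strands from 250 bases before to 50 bases after each RefSeq start. Such a start can lie inside the gene span used for counting, as for Orc1, Uhrf1 and Lig1. The words are shown first because they are what a subset of these genes shares in sequence. RefSeq promoters on GRCm38.p6 were matched for 36 of the 43 genes, with 42 promoters, and not for Ccne2, Gins1, Gins2, Gins4, Mcm4, Pole and Prim2. Of these 42 promoters, 12 (28.6%) held one of the words, against 0.813% of the 32851 promoters in the table. Below are the windows of 6 genes called higher in hypoxia over control by the adjusted p and fold limit given later. Windows of 3 genes not called follow: Mcm5 and Lig1, which missed only the fold limit, and Pola1. Each has up to 10 bases on either side, the word in capitals, and is printed on the strand that reads the word. In Mcm5 an overlapping TTTGGCGC on the other strand is left unmarked.
Orc1, chr4:108579417-108579444, minus strand: ggagaaaactTTTCGCGCcactaaccga
Cdt1, chr8:122568037-122568064, plus strand: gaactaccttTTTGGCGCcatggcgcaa
E2f2, chr4:136172303-136172323, plus strand: cggcatatagTTTGGCGCtaa
Pole2, chr12:69228163-69228190, plus strand: atgttcgcgaTTTGGCGCcaccgccgac
Rfc3, chr5:151651201-151651228, minus strand: cgtcgcacgcTTTCGCGCtcgcgggaaa
Uhrf1, chr17:56304118-56304145, plus strand: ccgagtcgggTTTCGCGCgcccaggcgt
Mcm5, chr8:75109346-75109373, plus strand: cgccaagaacTTTCGCGCcaaaacgtcc
Lig1, chr7:13278842-13278869, minus strand: gccacacagaTTTCGCGCgcactttggc
Pola1, chrX:93632276-93632303, plus strand: cgggagtgcaTTTGGCGCcctgtgatga
For 2 genes the whole 250 bases upstream of the RefSeq start are shown on the strand of the gene, with every E2F-type word in capitals. Mcm6 had 3 such words, of which 2 overlapped on opposite strands and formed the longer run of capitals. Mcm10, a helicase activator gene with the largest rise of all 43, had 0 whole words, although the downstream end of its searched window, past the bases shown, stops within a run that matches the first 7 of the 8 letters of TTTGGCGC.
Mcm6, chr1:128359706-128359955, minus strand: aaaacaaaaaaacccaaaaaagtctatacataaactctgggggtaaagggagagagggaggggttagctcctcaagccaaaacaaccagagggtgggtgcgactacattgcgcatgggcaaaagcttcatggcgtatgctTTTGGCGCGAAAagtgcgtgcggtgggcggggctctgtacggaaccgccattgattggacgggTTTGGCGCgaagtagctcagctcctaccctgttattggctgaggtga
Mcm10, chr2:5012792-5013041, minus strand: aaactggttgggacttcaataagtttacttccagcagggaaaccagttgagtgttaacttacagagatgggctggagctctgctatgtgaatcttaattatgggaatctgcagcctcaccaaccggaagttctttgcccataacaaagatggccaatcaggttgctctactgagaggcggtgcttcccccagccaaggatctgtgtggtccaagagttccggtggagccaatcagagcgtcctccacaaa
The CCAAT box was present in 24 of the 42 promoters (57.1%; 37.4% of all promoters), and the CHR word TTTGAA or TTCGAA, an element of many G2/M promoters, in 7 (16.7%; 19.2% of all). A match is a stretch of letters and not a measured binding site.

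The first comparison, hypoxia against control, asked how the deprived cells differed from cells in full medium. Most replication transcripts were higher after deprivation: 27 of 43 were called higher (Benjamini-Hochberg adjusted p below 0.05 in the quasi-likelihood test of edgeR, and a fold of at least 1.5), 0 were called lower, and 16 did not pass. Across all genes tested, 26.4% were called higher and 25.1% lower. The median fold of the 43 was 1.73, against 1.04 over all genes. At an unadjusted p below 0.05 with the same fold limit edgeR gave 27 higher and 0 lower, beside 27.1% and 25.4% of all genes, and so did DESeq2 at its adjusted p, beside 20.5% and 19.8% of the 22945 genes to which it gave one. With edgeR's adjusted p alone, 36 of the 43 passed and all 36 were higher, where 36.8% of all genes were higher and 34.1% lower. In 38 of the 43, every hypoxia library lay above every control library, which held for 37.7% of all genes. Together these transcripts made up 0.102% to 0.107% of the counts in control and 0.177% to 0.184% in hypoxia. In the same libraries all 15 cardiomyocyte markers were called lower, and 9 of 12 fibroblast and 6 of 6 epicardial markers were called higher. The part of the cell makeup in the rise of the replication genes was not tested.

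**Figure D1:**
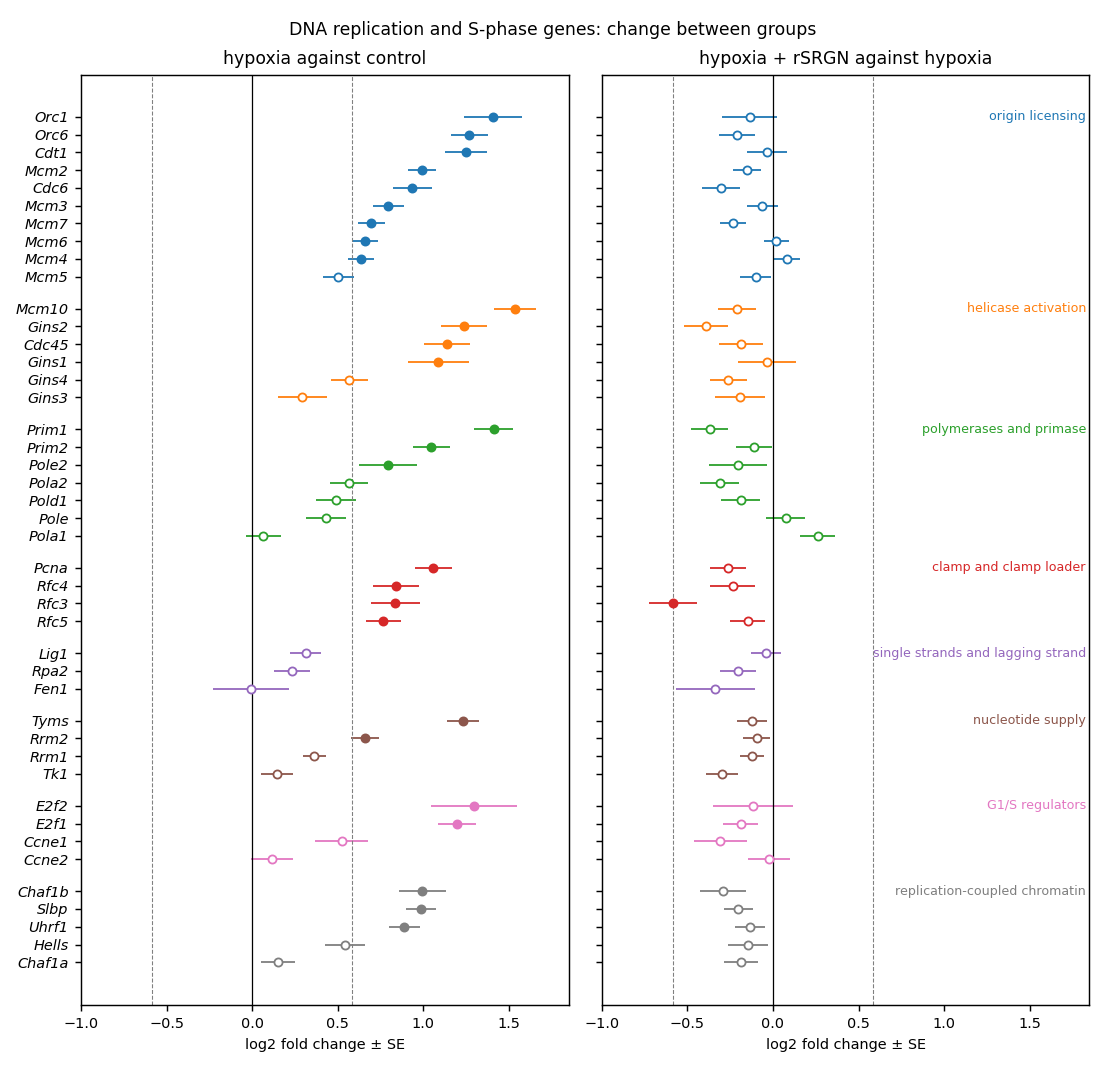
Log2 fold change with its standard error for each of the 43 genes, grouped by role in colour, for hypoxia against control (left) and hypoxia + rSRGN against hypoxia (right). Filled points passed the adjusted p and the 1.5-fold limit (dashed lines). On the left 27 points are filled and 42 lie right of 0, and on the right 39 lie left of 0 and only Rfc3 is filled.

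By role, the counts called higher in hypoxia are given beside 26.4% of all genes, in groups of only 3 to 10 genes. The clamp and its loader were called higher in 4 of 4 genes and the licensing factors in 9 of 10. The helicase activators followed with 4 of 6 and the chromatin factors with 3 of 5. The polymerases and primase passed in 3 of 7, nucleotide supply in 2 of 4, G1/S regulators in 2 of 4, and the single-strand and lagging-strand genes in 0 of 3. The difference between roles was not tested. Of 36 genes with a promoter, 12 held an E2F-type word, and 9 of these 12 were called higher in hypoxia. Among the 24 without one, 14 were called higher, beside 26.4% of all genes. The median log2 fold change was 0.79 with a word and 0.80 without. Genes with and without a word were thus found among both the called and the uncalled. Only the exact words TTTCGCGC and TTTGGCGC were searched, so a gene without one may hold another form of E2F site. The comparison therefore cannot show how genes with and without such a site differ.

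Among the licensing genes, Orc1 (ENSMUSG00000028587.18, chr4:108579423-108614833 on the plus strand), an ATPase subunit of the origin recognition complex, moved most. Its level was 3.59, 3.52 and 3.53 CPM in the control libraries, 11.3, 9.13 and 7.76 CPM in hypoxia and 7.75, 9.299 and 8.61 CPM in hypoxia + rSRGN. It rose 2.65-fold in hypoxia (log2 fold change 1.41 ± 0.17 SE, edgeR adjusted p = 1.95e-07). The control libraries were tightly grouped and lay below every hypoxic library. Orc6, the smallest subunit of the same complex, stood at 21.6, 16.3 and 17.5 CPM in control, 42.4, 42.1 and 49.1 CPM in hypoxia and 35.3, 39.5 and 40.5 CPM in hypoxia + rSRGN. Its log2 fold change in hypoxia was 1.27 ± 0.11 (edgeR adjusted p = 7.29e-10), again with no overlap. Cdt1, which escorts the MCM ring to the origin, had 8.72, 11.2 and 10.5 CPM in control, 25.3, 20.9 and 26.2 CPM in hypoxia and 21.1, 23.9 and 25.6 CPM in hypoxia + rSRGN. It changed by 1.25 ± 0.12 on the log2 scale (edgeR adjusted p = 7.36e-09), and its 2 hypoxic groups overlapped each other but not control. Cdc6, the loader that joins ORC before CDT1, rose 1.91-fold (edgeR adjusted p = 2.03e-07).

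The 6 subunits of the MCM ring, which act in equal numbers in the helicase, had smaller folds than Orc1, Orc6 and Cdt1. Their folds in hypoxia were 1.99 for Mcm2, 1.73 for Mcm3, 1.55 for Mcm4, 1.58 for Mcm6 and 1.62 for Mcm7, all called higher. Mcm5 was the member of the group with the smallest change, at 37.6, 39.02 and 41.2 CPM in control, 58.9, 54.03 and 53.7 CPM in hypoxia and 45.3, 52.3 and 57.8 CPM in hypoxia + rSRGN. Its groups of control and hypoxia did not overlap and its adjusted p was small (log2 fold change 0.50 ± 0.09, edgeR adjusted p = 4.30e-05), but its 1.42-fold difference was under the 1.5-fold limit. Per kilobase of exon, the ring subunits had 5.69 (Mcm2) to 13.4 (Mcm4) CPM in control and 11.3 (Mcm2) to 21.0 (Mcm6) CPM in hypoxia. Mcm2 was thus the lowest of the ring per length in both groups.

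Helicase activation held the largest change of all. Mcm10 (ENSMUSG00000026669.14, chr2:4989714-5012791 on the minus strand), which binds the loaded helicase and is needed for origin firing, was at 9.71, 9.302 and 9.13 CPM in control, 28.7, 30.05 and 22.8 CPM in hypoxia and 20.7, 24.96 and 24.8 CPM in hypoxia + rSRGN. The rise in hypoxia was 2.897-fold (log2 fold change 1.53 ± 0.12, edgeR adjusted p = 1.58e-10). All 6 hypoxic libraries stood above the 3 control libraries. Gins2, a subunit of the GINS complex, had 11.1, 10.7 and 10.8 CPM in control, 20.04, 32.2 and 24.6 CPM in hypoxia and 19.1, 19.8 and 19.4 CPM in hypoxia + rSRGN. The second hypoxia library was the highest of the 9, and the log2 fold change was 1.23 ± 0.13 (edgeR adjusted p = 3.29e-08), or 1.03 without that library. Cdc45, the helicase cofactor, read 12.1, 9.44 and 10.1 CPM in control, 18.3, 27.04 and 24.6 CPM in hypoxia and 19.3, 19.99 and 22.03 CPM in hypoxia + rSRGN, with a log2 fold change of 1.14 ± 0.14 (edgeR adjusted p = 1.33e-07). Control and hypoxia did not overlap in either gene.

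The 4 GINS subunits, which work as one tetramer, differed in size of change. Gins1 rose 2.12-fold and Gins2 2.35-fold, whereas Gins4 was 1.48-fold higher with an adjusted p of 7.17e-05 in edgeR and so missed the fold limit. Gins3 was at 7.64, 6.86 and 7.34 CPM in control, 9.94, 8.55 and 8.22 CPM in hypoxia and 7.45, 7.95 and 7.98 CPM in hypoxia + rSRGN. Its hypoxia libraries were all above control by a small margin, and it did not pass the test (log2 fold change 0.29 ± 0.14, edgeR adjusted p = 0.0732). Exons of Gins2 share 67.3% of their bases with Gse1 on the other strand, and the counting named no strand, so its level is uncertain.

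**Figure D2:**
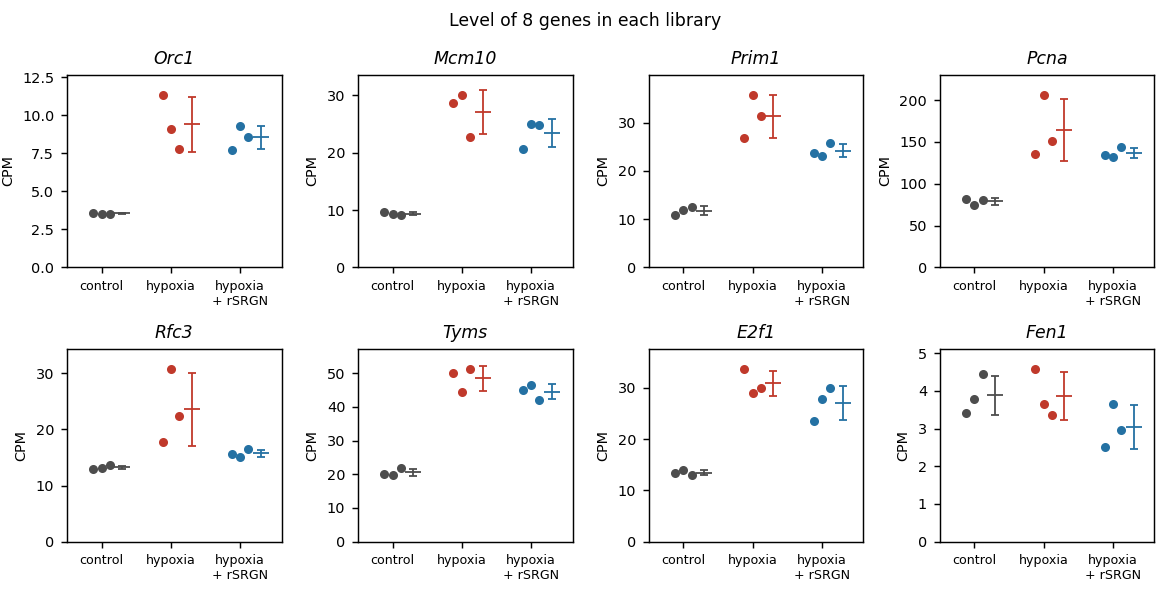
CPM of 8 of the genes in each library, as 3 points per group with the mean and SD beside them. Each vertical axis starts at 0. The hypoxia points lie above the control points in every panel but Fen1, and the second hypoxia library is the highest for Pcna, Rfc3, Prim1 and Mcm10.

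Of the DNA-synthesizing enzymes, the primase rose most. Prim1 (ENSMUSG00000025395.14, chr10:128015168-128030037 on the plus strand), the catalytic subunit that makes the RNA primers, gave 10.8, 11.9 and 12.6 CPM in control, 26.9, 35.7 and 31.4 CPM in hypoxia and 23.8, 23.1 and 25.8 CPM in hypoxia + rSRGN. It rose 2.66-fold in hypoxia (log2 fold change 1.41 ± 0.11, edgeR adjusted p = 2.73e-10). The 3 groups of Prim1 did not overlap at all, with hypoxia on top and hypoxia + rSRGN in between. Its partner Prim2, the large primase subunit, was at 11.1, 10.3 and 12.2 CPM in control, 21.1, 24.8 and 23.6 CPM in hypoxia and 21.9, 21.9 and 20.5 CPM in hypoxia + rSRGN (log2 fold change in hypoxia 1.05 ± 0.11, edgeR adjusted p = 1.66e-08). Pole2, the accessory subunit of polymerase epsilon, had 5.62, 5.103 and 6.04 CPM in control, 10.3, 9.01 and 9.67 CPM in hypoxia and 7.92, 6.55 and 10.7 CPM in hypoxia + rSRGN, and its rise of 0.79 ± 0.17 on the log2 scale was called (edgeR adjusted p = 3.03e-04). In both genes every hypoxia library was above every control library.

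The catalytic polymerase genes had smaller folds than the primase. Pola1, the catalytic subunit of polymerase alpha, which sits in one complex with both primase subunits, read 17.7, 17.1 and 19.6 CPM in control, 18.9, 20.2 and 17.7 CPM in hypoxia and 22.04, 23.2 and 22.8 CPM in hypoxia + rSRGN. Control and hypoxia overlapped and the change of 0.06 ± 0.10 on the log2 scale did not pass (edgeR adjusted p = 0.595). The polymerase alpha accessory subunit Pola2 (1.48-fold), the polymerase delta catalytic subunit Pold1 (1.404-fold) and the polymerase epsilon catalytic subunit Pole (1.35-fold) had small adjusted p-values but stayed under 1.5-fold.

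The clamp and the 3 loader subunits listed all rose. Pcna (ENSMUSG00000027342.14, chr2:132249162-132253314 on the minus strand), the ring that tethers polymerases to DNA, was the most abundant of the 43 per kilobase of exon, at 32.9 CPM per kilobase in control and 68.4 in hypoxia. Its libraries read 81.4, 74.3 and 80.9 CPM in control, 135, 206 and 151 CPM in hypoxia and 134, 132 and 144 CPM in hypoxia + rSRGN. The rise was 2.08-fold (log2 fold change 1.06 ± 0.11, edgeR adjusted p = 1.07e-08), and 0.86 on the log2 scale without the second hypoxia library, which stood well above the other two. The loader subunit Rfc4 was at 12.5, 9.44 and 10.1 CPM in control, 22.1, 18.2 and 17.3 CPM in hypoxia and 13.9, 17.1 and 17.9 CPM in hypoxia + rSRGN (log2 fold change 0.84 ± 0.13, edgeR adjusted p = 8.69e-06). Rfc3, another subunit, gave 13.03, 13.1 and 13.6 CPM in control, 17.8, 30.7 and 22.4 CPM in hypoxia and 15.6, 15.2 and 16.4 CPM in hypoxia + rSRGN. It had a log2 fold change of 0.84 ± 0.14 in hypoxia (edgeR adjusted p = 1.96e-05), or 0.60 without the second hypoxia library. Rfc5 was at 16.4, 13.998 and 14.2 CPM in control, 26.1, 23.4 and 26.4 CPM in hypoxia and 23.6, 22.1 and 22.8 CPM in hypoxia + rSRGN, and changed by 0.77 ± 0.10 (edgeR adjusted p = 8.79e-07). In none of these 4 genes did control and hypoxia overlap. Pcna has the pseudogenes Pcna-ps1 and Pcna-ps2 in the table, with which fragments could be shared.

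The genes for single strands and for joining lagging-strand fragments had the smallest median change of the roles, at 1.17-fold, although single genes of other roles changed less. The flap nuclease gene Fen1 was listed at 3.42, 3.79 and 4.45 CPM in control, 4.57, 3.64 and 3.36 CPM in hypoxia and 2.502, 3.66 and 2.96 CPM in hypoxia + rSRGN. Its groups overlapped (log2 fold change -0.01 ± 0.22, edgeR adjusted p = 0.9795). However, 84.2% of the exon bases of Fen1 are shared with other genes, mainly Tmem258 and Gm10143 on the other strand and fragments over such bases are left out of the count by default, so its level is uncertain. Rpa2, a subunit of the single-strand binding protein, was at 1.17-fold in hypoxia and missed both the fold limit and the adjusted p (edgeR adjusted p = 0.05004). The DNA ligase gene Lig1 was 1.24-fold higher and missed only the fold limit (edgeR adjusted p = 0.00389).

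Nucleotide supply divided between its enzymes. Tyms (ENSMUSG00000025747.12, chr5:30058202-30073617 on the minus strand), thymidylate synthase of the de novo route to dTMP, was at 20.2, 19.9 and 21.7 CPM in control, 49.9, 44.3 and 51.1 CPM in hypoxia and 44.9, 46.6 and 42.04 CPM in hypoxia + rSRGN. It rose 2.35-fold (log2 fold change 1.23 ± 0.09, edgeR adjusted p = 6.42e-11), and every hypoxic library was above control. Tk1, the thymidine kinase of the salvage route to the same nucleotide, had 33.8, 35.6 and 39.2 CPM in control, 42.7, 37.4 and 39.7 CPM in hypoxia and 34.4, 30.1 and 33.1 CPM in hypoxia + rSRGN. Its control and hypoxia libraries overlapped and no change was called (0.14 ± 0.09 on the log2 scale, edgeR adjusted p = 0.175). Rrm2, the S-phase subunit of ribonucleotide reductase, read 58.3, 50.9 and 58.8 CPM in control, 84.1, 92.3 and 88.8 CPM in hypoxia and 77.6, 79.98 and 90.4 CPM in hypoxia + rSRGN. It was called higher at 1.58-fold (log2 fold change 0.66 ± 0.08, edgeR adjusted p = 2.50e-07), but at 0.57 on the log2 scale without the second control library it fell under the fold limit. Its large-subunit partner Rrm1 was 1.29-fold higher and not called. The pseudogene Tyms-ps is in the table too.

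Among the G1/S regulators E2f1 and E2f2 rose and the 2 cyclin E genes were not called. E2f1 (ENSMUSG00000027490.17, chr2:154559407-154569892 on the minus strand), a transcription factor that switches on S-phase genes, had 13.3, 14.04 and 13.05 CPM in control, 33.6, 29.01 and 30.1 CPM in hypoxia and 23.5, 27.8 and 29.9 CPM in hypoxia + rSRGN. The change was 2.29-fold (log2 fold change 1.20 ± 0.11, edgeR adjusted p = 1.78e-09) with no overlap. E2f2, a factor of the same kind and per kilobase the least abundant of the 43 (0.519 CPM per kilobase in control), was at 2.11, 2.94 and 2.56 CPM in control, 7.57, 4.74 and 6.37 CPM in hypoxia and 8.22, 4.91 and 4.23 CPM in hypoxia + rSRGN. Its log2 fold change of 1.30 had the widest error of the genes called higher (SE 0.25, edgeR adjusted p = 9.43e-05). For Ccne2, a cyclin that activates CDK2, the libraries gave 16.04, 12.9 and 14.98 CPM in control, 14.5, 16.5 and 16.6 CPM in hypoxia and 13.4, 17.5 and 15.8 CPM in hypoxia + rSRGN. They overlapped, and the change of 0.12 ± 0.12 on the log2 scale was not called (edgeR adjusted p = 0.407). E2f3, another activator E2F outside the 43 genes and named here after its values were seen, did not pass the test in hypoxia, and its libraries overlapped (log2 fold change 0.04 ± 0.09, edgeR adjusted p = 0.704). Ccne1, the paralogue of Ccne2, was 1.44-fold higher, which was under the limit.

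Of the chromatin factors, Chaf1b, the middle subunit of the CAF-1 histone chaperone, was at 9.66, 8.72 and 11.9 CPM in control, 17.5, 21.6 and 21.1 CPM in hypoxia and 18.9, 14.4 and 15.95 CPM in hypoxia + rSRGN. It rose by 0.99 ± 0.14 on the log2 scale (edgeR adjusted p = 9.56e-07). Slbp, which binds the stem-loop of histone mRNAs, had 30.2, 28.4 and 26.4 CPM in control, 52.6, 55.7 and 60.3 CPM in hypoxia and 48.02, 47.6 and 50.9 CPM in hypoxia + rSRGN, a log2 fold change of 0.99 ± 0.09 (edgeR adjusted p = 1.12e-09). Uhrf1, which brings the maintenance DNA methyltransferase to newly copied DNA, read 45.3, 50.2 and 51.3 CPM in control, 93.3, 81.01 and 97.5 CPM in hypoxia and 76.3, 78.8 and 92.9 CPM in hypoxia + rSRGN, and changed by 0.89 ± 0.09 (edgeR adjusted p = 1.01e-08). None of these 3 genes overlapped between control and hypoxia. The large CAF-1 subunit gene Chaf1a was at 19.5, 21.99 and 22.7 CPM in control, 23.4, 24.8 and 22.9 CPM in hypoxia and 20.5, 20.96 and 21.02 CPM in hypoxia + rSRGN. The gap between its groups was narrow and did not pass the test (log2 fold change 0.15 ± 0.10, edgeR adjusted p = 0.179), and 52.5% of its exon bases are shared with Ubxn6. The chromatin remodeller gene Hells was 1.45-fold higher and under the limit.

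**Figure D3:**
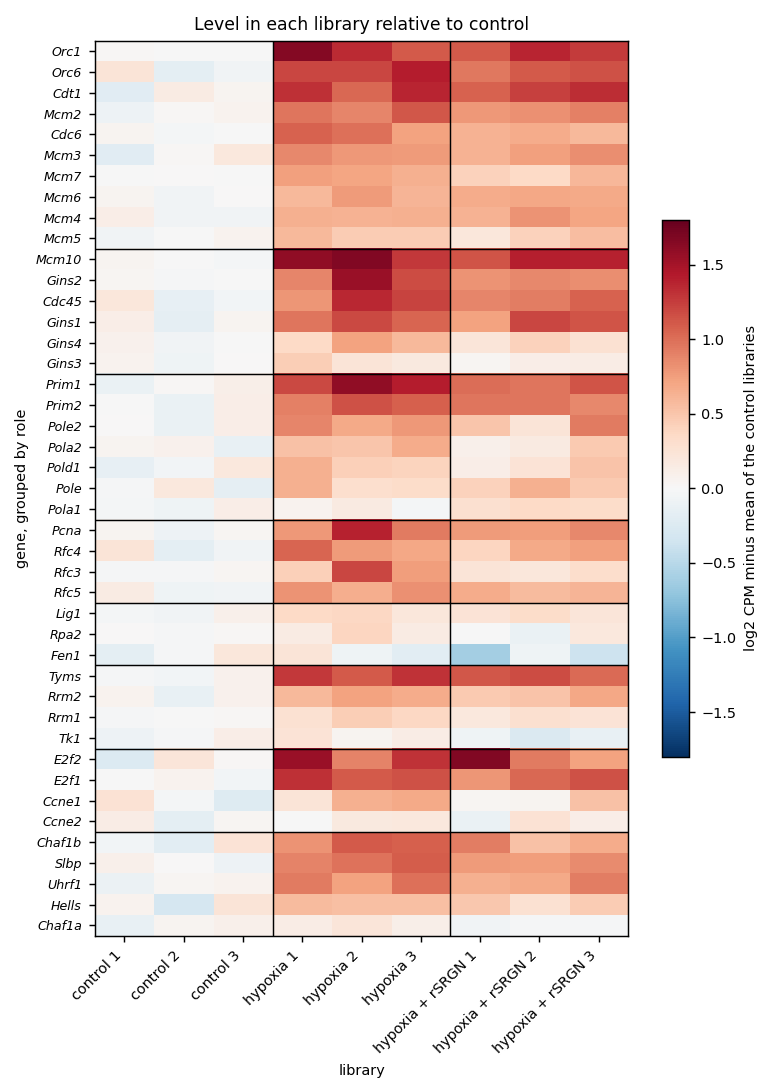
Level of each of the 43 genes in each of the 9 libraries, as log2 CPM minus the mean of the 3 control libraries, with black lines between roles and groups. Red is above control and blue below. The median over the genes was 0.72 to 0.78 in the hypoxia libraries and 0.63 to 0.68 in the hypoxia + rSRGN libraries.

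Between the genes, levels per kilobase spanned from E2f2 and Orc1 (0.519 and 1.02 CPM per kilobase in control) to Rrm2 and Pcna (20.2 and 32.9). Over the 43 genes, the log2 fold change in hypoxia and the genomic span had a Spearman rho of -0.0358 and a Pearson r of -0.0908, given as a description over genes that share the same 9 libraries. Over the 13897 protein-coding genes tested, rho was -0.182 and r -0.17. Of the 43 genes, 15 share exon bases with another gene, and besides Fen1, Gins2 and Chaf1a the largest share was 17.4%, in Ccne2.

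The second comparison, hypoxia + rSRGN against hypoxia, compared cultures whose labels differ by the recombinant protein and nothing else. The replication genes were a little lower with rSRGN and almost none passed the test. Of 43 genes, 0 were called higher and 1 was called lower, against 2.27% and 0.859% of all genes. The fold was below 1 in 39 of 43 genes (90.7%), against 53.7% of all genes tested, and the median fold was 0.879, against 0.980. Without the second hypoxia library 37 of the 43 were below 1. Every hypoxia + rSRGN library lay below every hypoxia library in 12 genes, or 27.9%, against 15.5% of all genes, and above in 1, Pola1. The count of signs is a description, since the genes share the same libraries. At an unadjusted p below 0.05 with the fold limit edgeR gave 0 higher and 1 lower, beside 3.25% and 2.12% of all genes, and DESeq2 called 0 and 0, beside 3.17% and 0.588% of its 13774 genes. In the same comparison 13 of the 15 cardiomyocyte markers were called higher. Of 12 fibroblast markers 0 were called higher and 1 lower, but 8 had a fold above 1 and the median fold was 1.042. The part of these markers in the shift was not tested.

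The gene called lower was Rfc3, the clamp loader subunit. With the values above, all 3 hypoxia + rSRGN libraries lay below all 3 hypoxia libraries, and the fold was 0.666 (log2 fold change -0.59 ± 0.14, edgeR adjusted p = 0.00702). This was at the edge of the 1.5-fold limit, and in 12 of 18 alternative analyses its change was smaller than the limit. The value depended on the second hypoxia library, without which it was -0.35 with an adjusted p of 0.0434 in edgeR. With the adjusted p alone and no fold limit, 5 genes were lower and 0 higher, beside 6.11% and 10.5% of all genes. Besides Rfc3 they were Prim1 (-0.37 ± 0.11, edgeR adjusted p = 0.0238), Tk1 (-0.30 ± 0.09, edgeR adjusted p = 0.0332), Mcm7 (-0.23 ± 0.08, edgeR adjusted p = 0.0398) and Gins2 (-0.39 ± 0.13, edgeR adjusted p = 0.0409), all as log2 fold changes. When each of the 9 libraries was left out in turn, the adjusted p in edgeR missed 0.05 in 4 of 9 cases for Prim1, 6 for Tk1, 8 for Mcm7, 8 for Gins2 and 0 for Rfc3. Without the second hypoxia library Prim1 was at -0.26 (edgeR adjusted p = 0.0998) and Gins2 at -0.19 (edgeR adjusted p = 0.266). All 5 kept a value below 0 in each of these fits. Mcm7, a subunit of the helicase ring, read 50.01, 50.7 and 49.9 CPM in control, 83.5, 82.4 and 77.96 CPM in hypoxia and 67.1, 64.7 and 75.7 CPM in hypoxia + rSRGN, so that its hypoxia + rSRGN libraries lay between the other groups.

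The gene that went the other way was Pola1, at 0.26 ± 0.10 on the log2 scale, with all 3 hypoxia + rSRGN libraries above all 3 hypoxia libraries and an edgeR adjusted p of 0.0836, which did not pass. The other genes with a fold above 1 were Mcm4 (1.06), Pole (1.05) and Mcm6 (1.01), with none called. These 4 genes are named here after their values were seen.

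The third comparison, hypoxia + rSRGN against control, shares libraries with both of the others. There, 24 of 43 genes were called higher and 0 lower, with 24.1% and 24.7% of all genes, and the median fold was 1.535, against 1.005 over all genes. DESeq2 called 23 higher and 0 lower, beside 19.9% and 19.1% of its 22334 genes, and at an unadjusted p below 0.05 edgeR gave 24 and 0, beside 24.6% and 25.1% of all genes. With the adjusted p of edgeR alone, 34 were higher and 0 lower, beside 34.4% and 34.3% of all genes. The largest log2 fold changes were 1.32 ± 0.12 for Mcm10 (edgeR adjusted p = 2.24e-09), 1.27 ± 0.17 for Orc1 (edgeR adjusted p = 9.92e-07) and 1.21 ± 0.12 for Cdt1 (edgeR adjusted p = 1.26e-08). Rfc3, Mcm7 and Rrm2 were called higher in hypoxia but not in hypoxia + rSRGN, at 1.19-fold, 1.38-fold and 1.48-fold over control. Summed over all 43 genes, the level was 1048 to 1104 CPM in control, 1726 to 1837 CPM in hypoxia and 1535 to 1676 CPM in hypoxia + rSRGN, and the 3 ranges did not overlap.

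Other genes of the same pathway, from a list of 44, moved in both directions: 17 were called higher and 4 lower in hypoxia, beside 26.4% and 25.1% of all genes, with a median fold of 1.35, against 1.038 over all genes. The largest rises were those of the histone chaperone gene Asf1b (log2 fold change 1.39 ± 0.11), the small polymerase delta subunit gene Pold4 (1.32 ± 0.13) and the helicase gene Recql4 (1.23 ± 0.17). The largest falls were in Rrm2b, the p53-induced ribonucleotide reductase subunit (-1.31 ± 0.11), in Mcm9, an MCM-like helicase outside the ring (-1.02 ± 0.12), and in Rfc1, the large loader subunit (-0.90 ± 0.09). Rfc1 thus fell where Rfc3, Rfc4 and Rfc5 rose, and Rrm2b fell where Rrm2 rose. With rSRGN, edgeR called 0 of the 44 in either direction, beside 2.27% of all genes higher and 0.859% lower. DESeq2 also gave 0, beside 3.17% and 0.588% of its genes. So did an unadjusted p below 0.05 with the fold limit, beside 3.25% and 2.12%. A fold below 1 was found in 36 of the 44, against 53.7% of all genes.

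**Figure D4:**
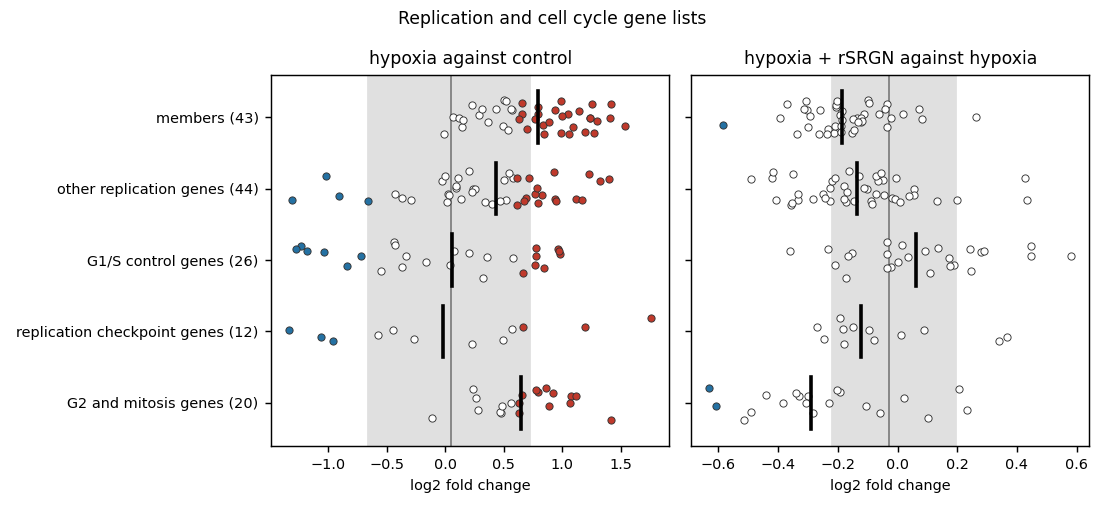
Log2 fold change of each gene of 5 lists, for hypoxia against control (left) and hypoxia + rSRGN against hypoxia (right). Red points were called higher and blue lower, black bars are list medians, and the grey band and line are the quartiles and median of all genes tested. On the left the medians are 0.79 for the 43 replication genes, 0.43 for other replication genes and 0.64 for the G2 and mitosis genes, and near 0 for the other lists.

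Genes that control entry into S phase moved both ways, with 8 of 26 called higher and 6 lower in hypoxia, near the 26.4% and 25.1% of all genes, and a median fold of 1.04, against 1.038 over all genes. Cdkn1a, the CDK inhibitor p21, read 203, 196 and 179 CPM in control, 326, 469 and 348 CPM in hypoxia and 367, 367 and 380.1 CPM in hypoxia + rSRGN. Its log2 fold change in hypoxia was 0.98 ± 0.10 (edgeR adjusted p = 1.04e-08), so a cell cycle inhibitor was higher in the same libraries as the replication genes, and highest in the second hypoxia library. Skp2, which targets p27 for degradation (0.97 ± 0.12), and the G1 kinase gene Cdk4 (0.96 ± 0.07) rose as well. The falls were largest in the CDK inhibitor gene Cdkn1c (-1.27 ± 0.15), the pocket protein gene Rbl2 (-1.23 ± 0.11) and Fbxw7, which marks cyclin E for degradation (-1.18 ± 0.09). Cdkn1c shares 30.7% of its exon bases with Gm44732 on the other strand, and Rbl2 shares 21.0%. With rSRGN, edgeR called 0 of the 26, beside 2.27% of all genes higher and 0.859% lower. At an unadjusted p below 0.05 with the fold limit it also called 0, beside 3.25% and 2.12%. DESeq2 called 1 higher and 0 lower, near the 3.17% and 0.588% of its genes.

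The replication checkpoint list of 12 had 3 genes called higher and 3 lower, close to the shares over all genes (26.4% and 25.1%). Chek1, the checkpoint kinase gene, was at 5.93, 6.19 and 6.91 CPM in control, 20.6, 24.4 and 19.5 CPM in hypoxia and 19.1, 19.3 and 17.9 CPM in hypoxia + rSRGN. It rose 3.39-fold (log2 fold change 1.76 ± 0.12, edgeR adjusted p = 1.84e-11), more than any of the 43 genes in value. Its upstream kinase gene Atr fell by 0.96 ± 0.14 on the log2 scale, with Wee1, the kinase that holds CDK1 in check (-1.33 ± 0.10), and Hus1, a part of the 9-1-1 clamp (-1.06 ± 0.11). Rad9a, another part of that clamp (1.19 ± 0.10), and the fork protection gene Tipin (0.67 ± 0.09) rose. With rSRGN, edgeR called 0 of the 12, beside 2.27% of all genes higher and 0.859% lower. DESeq2 also called 0, beside 3.17% and 0.588% of its genes. An unadjusted p below 0.05 with the fold limit gave 0 as well, beside 3.25% and 2.12%.

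The G2 and mitosis genes, which follow S phase, had 12 of 20 called higher and 0 lower in hypoxia, beside 26.4% and 25.1% of all genes, with a median fold of 1.56. DESeq2 gave the counts 12 and 0 as well, beside 20.5% and 19.8% of its genes, as did the unadjusted p with the fold limit, beside 27.1% and 25.4%. Led by the mitotic kinase gene Aurkb (1.42 ± 0.11), they included Cdk1 (1.11 ± 0.09) and the cyclin gene Ccnb2 (1.07 ± 0.11). With rSRGN, 2 of the 20 were called lower, Cdc20 and Aurka, beside 0.859% of all genes. DESeq2 called 1 of 20 lower, beside 0.588% of its genes. A fold below 1 was found in 16 of the 20, against 53.7% of all genes. Cdc20, the activator of the anaphase-promoting complex, read 32.5, 29.7 and 32.1 CPM in control, 58.2, 59.2 and 53.7 CPM in hypoxia and 31.5, 37.9 and 41.04 CPM in hypoxia + rSRGN, a log2 fold change of -0.63 ± 0.10 (edgeR adjusted p = 2.15e-04), or -0.53 and under the fold limit without the first hypoxia + rSRGN library. Aurka, a spindle kinase gene, was at -0.61 ± 0.11 (edgeR adjusted p = 0.001104).

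Of the markers of other cell types, those of fibroblasts and the epicardium were mostly called higher in hypoxia, as the replication genes were, while those of macrophages were mostly called lower. Of all genes, 26.4% were called higher and 25.1% lower in the same comparison. Summed levels of the 12 fibroblast markers were 12837 to 14953 CPM in control, 26028 to 28730 CPM in hypoxia and 29168 to 30445 CPM in hypoxia + rSRGN, with 9 of the 12 called higher in hypoxia. Those of 6 epicardial markers were 227 to 255 CPM, 856 to 931 CPM and 791 to 874 CPM in the same order, with 6 of 6 called higher. Endothelial markers, 11 in number, had 1 gene called higher and 6 lower, with a median fold of 0.642 in hypoxia. Their sum nevertheless rose, from 293 to 320 CPM in control to 516 to 593 CPM in hypoxia and 595 to 599 CPM in hypoxia + rSRGN. The sum thus does not stand for most of the list. The 12 macrophage markers had 10 called lower and 1 higher, Cx3cr1, and summed to 235 to 252 CPM, 109 to 164 CPM and 137 to 157 CPM. Their median fold in hypoxia was 0.067, a larger fall than that of the sum, and the log2 fold change of Cx3cr1 was 8.65. The 8 smooth muscle and pericyte markers had 2 called in each direction, near the shares of all genes, with 1829 to 2124 CPM, 2189 to 2506 CPM and 2005 to 2105 CPM. Of all these lists, no marker was at 0 in every library.

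**Figure D5:**
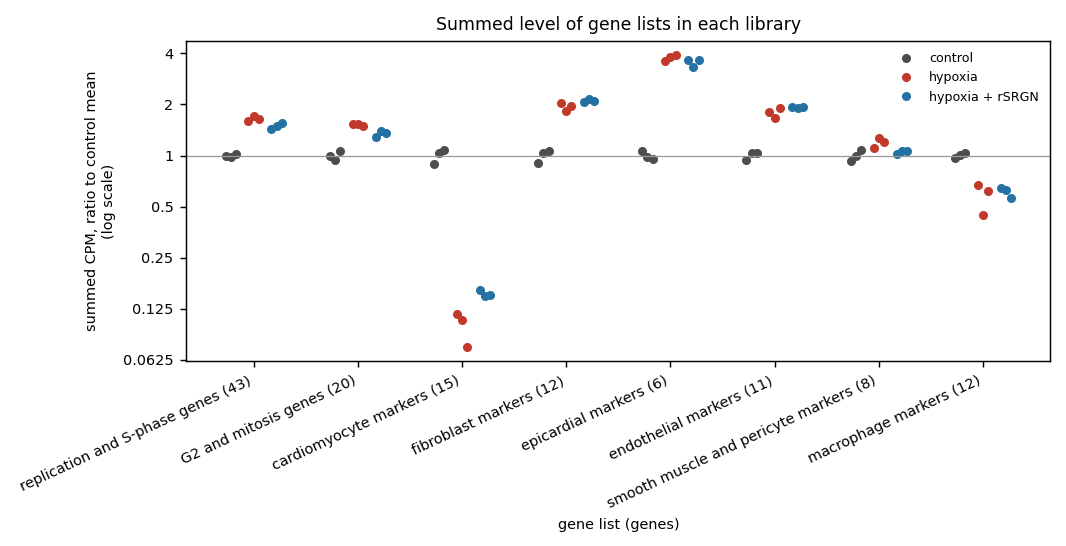
Summed CPM of 8 gene lists in each library, divided by the mean of the control libraries, on a log axis. Points are libraries, in the colour of their group. The 43 replication genes sum to more in every hypoxic library than in any control library, as do the fibroblast, epicardial and endothelial markers. The cardiomyocyte and macrophage markers sum to less. The endothelial sum does not stand for most of its list, whose median fold in hypoxia was 0.642.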

How the data were processed

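The authors deposited raw, unscaled fragment counts by gene in 1 table for 9 poly(A) RNA-seq libraries of cultured myocytes. Its header names featureCounts 2.0.1, paired-end counting over exons, GENCODE mouse release 25 and no strand option, and the submitters' processing notes name HISAT2 (version not given in the sources used here) and mm10. Fragments over more than 1 gene and multi-mapping fragments are left out by default, which lowers genes with overlaps or near-identical copies. Exon length came from the deposited table. All 9 count columns were used.

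Groups were compared with edgeR 4.0.16 under R 4.3.3 (filterByExpr, TMM, a mean per group over all 9 libraries, 6 residual degrees of freedom, quasi-likelihood test, Benjamini-Hochberg adjustment over all genes tested). Calls needed an adjusted p below 0.05 together with at least 1.5-fold. The SE is the log2 fold change divided by the root of the test's F. DESeq2 1.42.0, other scalings, filters and limits, a replicate block and leaving out each library were alternatives, and the procedure was tested on simulated data. Replicate libraries differed by more than counting noise (chi-square per degree of freedom 3.74 to 14.2). With 3 libraries against 3, an exact permutation test cannot go below p = 0.1, so single genes were tested in the fit across all genes.

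The genes and lists were chosen with earlier results of these data known. In each role the 3 called genes with the largest change in hypoxia and the gene with the smallest change are given in every library, with the 4 genes of smallest p under rSRGN, and of each other list the 3 largest called rises and falls in hypoxia and the largest called change under rSRGN. Aurka and Cx3cr1 were named after their values were seen. The paper given for these libraries describes hearts and blood, so its methods were not used for the test.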

Additional observations from a re-analysis of the deposited data

How the results depend on the processing

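Across 18 alternatives, the count of replication genes called higher in hypoxia ranged from 25 to 36 and the count called higher in hypoxia + rSRGN over control from 21 to 34, with 0 called lower in either. The upper ends, 36 and 34, came with no fold limit, where 36.8% and 34.4% of all genes were higher. The median log2 fold change kept its sign in all 3 comparisons. It was 0.71 to 0.86 in hypoxia and -0.21 to -0.15 with rSRGN. The 1 gene called lower with rSRGN, Rfc3, was not stable. The count was 0 with DESeq2, RLE scaling, either other filter on low counts, a fit to only the groups compared or the replicate block, was 5 with no fold limit (6.11% of all genes were lower there), and ran from 0 to 1 when a library was left out. Genes with a fold below 1 in that comparison numbered 36 to 40. Fen1, not called, changed sign in hypoxia to 0.063 with library size alone, 0.089 without the third control library, 0.032 without the second hypoxia library and 0.081 without the third. The replicate block gave 27 genes higher in hypoxia and 23 in hypoxia + rSRGN over control. Same-numbered libraries did not deviate together (correlations -0.0374 to 0.0215), so the numbers were not taken as pairs. Scaling by library size alone moved the median log2 fold change of all genes in hypoxia from 0.05 to 0.12. Depth limits the precision of genes with low counts, such as E2f2, which had the lowest CPM of the 43 genes in control. The causes of these changes were not tested.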
